A study of Mus musculus with 384 samples.

Results

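Solute carriers (SLC proteins) are the membrane proteins that move nutrients, ions, metals and metabolites into cells and between their compartments, and 148 of their genes were described here in single cells of mouse mammary epithelium. The genes were chosen by name and level. A gene entered when its symbol had the solute carrier form and its mean level over the 5 single-cell groups was at least 10 CPM (reads scaled to the same total in every group), so levels served to choose the genes and are given as a description. Of 350 such symbols among the 49585 genes of the table, 148 reached the minimum and 202 did not, 64 of the latter without a read in any kept cell. The genes nearest the minimum were Slc4a3, Slc4a1ap and Slc12a9 inside it at means of 10.2, 10.9 and 11.1 CPM, and Slc41a2, Slc25a27 and Slc6a2 outside it at 9.27, 9.12 and 9.07 CPM. The symbols of 4 of the 148 name other proteins: Slc9a3r1 and Slc9a3r2 encode the scaffold proteins NHERF1 and NHERF2, Slc4a1ap an adaptor protein, and Slc7a6os the neighbour of Slc7a6 on the opposite strand. These were kept, since the rule takes them in.

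All mice carried the strain label K8rtta/TetO-DTA/K5CreER/Rosa-Tomato on a mixed background, wild-type (WT) mice included. In this model the Krt8 promoter drives rtTA, doxycycline then switches on diphtheria toxin A, and a Krt5-promoter CreER switches on the Tomato label. Ablated glands had received 0.2 mg doxycycline by intraductal injection 1 week before sorting, and the labels record neither for WT glands. Tomato-positive cells were sorted by CD29 and EpCAM, without CD45, CD31 or CD140a, into basal and luminal gates in WT glands and basal, hybrid and luminal gates in ablated glands, and were read with the full-length Smart-seq2 method. Age, the animal of each cell and the borders of the hybrid gate are not given. Each group is therefore 1 sample, so no test between groups was run, and differences could not be set against a spread between animals. Doxycycline, injection, ablation, animal and plate position cannot be told apart between ablated and WT groups.

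After removal of poor wells 44 basal and 43 luminal cells of WT glands and 71 basal, 85 hybrid and 76 luminal cells of ablated glands passed, with 118310 to 3835005 reads in genes each. In WT glands marker genes followed the gates. Basal markers summed to 21547 CPM in WT basal and 170 CPM in WT luminal cells, and luminal markers to 1596.5 and 27909 CPM in that order. Ablated basal cells had 35310 CPM of basal and 1118 CPM of luminal markers. Ablated hybrid cells had both, at 18671 and 14432 CPM. Ablated luminal cells also held basal markers, at 6426 CPM beside 23532 CPM of luminal markers. Krt14 was detected in 69.7% of ablated luminal cells. Markers of immune and endothelial cells summed to 2.64 to 117 and 1.94 to 12 CPM over the groups. Other sets were higher. Fibroblast markers, led by Dcn, summed to 130 to 2043 CPM, and Schwann markers, led by Sox10, to 99 to 225 CPM. Adipocyte and pericyte markers summed to 156 to 304 and 23.5 to 55.6 CPM. Erythroid markers summed to 795 CPM in hybrid cells and at most 11.4 CPM elsewhere. Depth of detection was uneven: the median cell detected 1160.5 (basal) and 1836 (luminal) genes in WT glands and 1555 (basal), 2858 (hybrid) and 2704 (luminal) in ablated glands, of the 9554 genes at 10 CPM or more, counted after every cell had been thinned to 100000 reads. Negative control wells held at most a mean of 14 reads of an SLC gene, that of Slc3a2, against kept cells of 118310 reads or more. The libraries of many cells held 1005368 to 3511761 reads, from a number of cells the labels do not give.

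Carriers work by letting a solute down its own gradient, by coupling it to the inward flow of sodium or protons, or by exchanging it for another solute. Some heavy chains, such as the CD98 protein encoded by Slc3a2, bring light chains of the Slc7 family to the cell surface. The secretory mammary epithelium is known for carriers that move glucose, amino acids, peptides, iodide, zinc, phosphate and nucleosides towards milk, and the Slc25 family carries metabolites across the inner mitochondrial membrane. In the bilayered duct, luminal cells face the lumen and basal (myoepithelial) cells face the matrix and the blood supply.

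The sequences before the start sites of 6 genes that the results below turn on are shown here. They are the 250 bases upstream of a RefSeq start site (GRCm38.p6), on the strand of the gene, 5′ to 3′, with matches in capitals. Slc5a5 (chr8:70892758-70893007, minus strand), Slc28a3 (chr13:58610878-58611127, minus) and Slc15a2 (chr16:36784963-36785212, minus) were higher in WT luminal cells. Slc7a6 (chr8:106168604-106168853, plus) was higher in basal cells. Slc16a1 (chr3:104638414-104638663, plus) was higher in hybrid than in ablated luminal cells. Slc27a1 (chr8:71570344-71570593, plus) moved in opposite directions in basal and luminal cells after ablation, and its window lies within the gene between annotated exons. None of the 6 windows overlaps an exon of GENCODE M21. The motifs, searched on both strands, were CACGTG (an E box), ACGTG (the core of the hypoxia response element, contained in CACGTG), TGACNNNGC (the core of the antioxidant response element), TTCNNNGAA (a STAT site) and TGATGNAA (the core of the amino acid response element).
Slc5a5: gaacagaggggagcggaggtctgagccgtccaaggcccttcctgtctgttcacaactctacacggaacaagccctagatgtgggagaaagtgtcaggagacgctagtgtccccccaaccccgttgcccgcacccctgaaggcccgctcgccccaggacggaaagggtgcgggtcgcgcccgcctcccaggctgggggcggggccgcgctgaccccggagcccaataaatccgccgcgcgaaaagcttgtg
Slc28a3: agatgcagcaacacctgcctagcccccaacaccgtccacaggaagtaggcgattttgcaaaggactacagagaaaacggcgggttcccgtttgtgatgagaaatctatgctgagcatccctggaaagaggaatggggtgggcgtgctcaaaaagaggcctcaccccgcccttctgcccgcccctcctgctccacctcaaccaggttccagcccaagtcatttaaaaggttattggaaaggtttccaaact
Slc15a2: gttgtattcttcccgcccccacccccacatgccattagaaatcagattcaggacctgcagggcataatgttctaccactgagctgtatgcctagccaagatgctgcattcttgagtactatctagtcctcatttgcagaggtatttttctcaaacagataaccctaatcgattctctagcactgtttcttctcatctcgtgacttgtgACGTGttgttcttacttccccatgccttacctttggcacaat
Slc7a6: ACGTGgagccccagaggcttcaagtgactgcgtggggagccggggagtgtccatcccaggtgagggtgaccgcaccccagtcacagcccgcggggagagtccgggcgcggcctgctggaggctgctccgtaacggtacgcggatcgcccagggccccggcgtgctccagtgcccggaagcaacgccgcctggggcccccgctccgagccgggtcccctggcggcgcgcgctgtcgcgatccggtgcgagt
Slc16a1: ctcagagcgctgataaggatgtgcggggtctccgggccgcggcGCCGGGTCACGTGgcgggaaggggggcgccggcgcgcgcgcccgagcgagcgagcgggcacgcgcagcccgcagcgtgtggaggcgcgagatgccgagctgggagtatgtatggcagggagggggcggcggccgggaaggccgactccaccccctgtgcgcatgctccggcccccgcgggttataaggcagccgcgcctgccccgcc
Slc27a1: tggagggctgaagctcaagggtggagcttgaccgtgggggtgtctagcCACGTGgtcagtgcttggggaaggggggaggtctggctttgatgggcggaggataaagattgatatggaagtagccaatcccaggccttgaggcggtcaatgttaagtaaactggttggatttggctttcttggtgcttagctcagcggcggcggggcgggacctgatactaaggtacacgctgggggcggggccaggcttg

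Slc5a5 and Slc28a3 held no match to any motif, Slc15a2 and this window of Slc7a6 held ACGTG alone, Slc27a1 held CACGTG, and Slc16a1 held CACGTG overlapping TGACNNNGC on the opposite strand. Some genes have several start sites: the other window of Slc7a6 held TGACNNNGC and ACGTG, and the other 2 of Slc27a1 held no match. RefSeq windows were found for 111 of the 148 genes. CACGTG stood in 17.1% of these 111, in 10.35% of all 7504 genes at 10 CPM or more with a window and in 6.86% of all 27025 genes with one. TGACNNNGC stood in 21.6%, 14.4% and 11.5% in the same order, and ACGTG in 26.1%, 25.9% and 18.5%. TTCNNNGAA was found in 7.21%, 7.08% and 8.13%, and TGATGNAA in 1.80%, 2.36% and 3.91%, with Slc50a1 and Slc7a7 the 2 SLC genes that held it. Of the 12 genes with a window that were luminal in both lineage comparisons described below, 0 held CACGTG, 1 held TGACNNNGC (Slc25a23) and 1 held ACGTG (Slc15a2). These are matches of letters in a window and show no binding.

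The SLC genes together took a similar share of transcripts in all groups, at 13747 and 13634 CPM in basal and luminal cells of WT glands, and at 11510, 12294 and 12636 CPM in basal, hybrid and luminal cells of ablated glands. Per kilobase of exon, the scale on which genes can be compared, Slc3a2 led with a mean of 347 CPM per kb over the groups. Next came the mitochondrial carriers Slc25a5 and Slc25a4, which exchange ADP for ATP, and Slc25a3, which imports phosphate, at 269, 268 and 252 CPM per kb. The other genes of the 10 highest were Slc25a39 (128 CPM per kb), which imports glutathione into mitochondria, the zinc importer Slc39a1 (98.6), the oxoglutarate carrier Slc25a11 (93.2), the glucose transporter Slc2a1 (90.9), the nucleoside transporter Slc29a1 (77.3) and the sugar transporter Slc50a1 (77.3). Detection was sparse for most of the others. The median cell detected 13.5 (basal) and 24 (luminal) of the 148 genes in WT glands and 17 (basal), 36 (hybrid) and 34 (luminal) in ablated glands, an order that followed the number of all genes detected. Only Slc25a3, Slc25a4, Slc38a2, Slc39a1 and Slc3a2 were detected in at least 50% of cells of every group.

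Slc3a2 stood at 1944 and 1324 CPM in the basal and luminal gates of WT glands, and at 1078, 1130.5 and 646 CPM in the basal, hybrid and luminal gates of ablated glands. It was highest in WT basal and lowest in ablated luminal cells. Slc25a3 stood at 2021, 1074, 1152, 1306 and 1443 CPM in the same group order, and Slc38a2, a sodium-coupled importer of small neutral amino acids, at 1249, 309, 782, 511 and 343 CPM. Slc38a2 was detected in 65.9% (50.1 to 79.5) of WT basal and 69.8% (53.9 to 82.8) of WT luminal cells; the libraries of many cells held 708 and 767 CPM, so its higher basal level was not seen there. Intervals of shares are exact Clopper-Pearson 95% intervals and cover the sampling of cells in a group only. Where no cell detected a gene, the upper limit printed is 3 cells of the total.

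The first comparison set WT luminal against WT basal cells and addressed which carriers divide the lineages in an unablated gland. A gene was counted as higher when its log2 ratio, taken after adding 10 CPM to both groups, was at least 1 (2-fold) and its share of detecting cells (5 or more reads after thinning) was at least 10 points higher in the same group. By this rule 38 of the 148 SLC genes were higher in luminal cells, where 14.9% of the 9554 genes at 10 CPM or more were, and 6 were higher in basal cells, where 4.89% of all genes were. The median log2 ratio was 0.39 over the SLC genes and 0.00 over all genes. How far the counts leaned to luminal cells depended on the detection part of the rule. By fold alone 53 SLC genes were higher and 39 lower in luminal cells, against 23.2% and 22.3% of all genes, and WT basal cells detected fewer genes per cell, whose part in the split was not tested. The 2 libraries of many cells were sequenced beside the single cells, with 1 library per group. There 27 of the 38 luminal and all 6 basal genes had the same direction. Together these were 75% of the SLC genes counted, against 72.3% of all genes counted.

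The counts by substrate class that follow are to be read against those shares of 14.9% and 4.89% of all genes, and with so few genes a class nothing particular to a class was read from them. Among ion and pH carriers, 5 of 16 were luminal and 0 basal. Slc12a2, the sodium, potassium and chloride cotransporter NKCC1 that feeds chloride secretion, stood at 97.8 and 1051 CPM in the basal and luminal gates of WT glands, and at 24.5, 142 and 956 CPM in the basal, hybrid and luminal gates of ablated glands. Both luminal groups were far above both basal groups, with hybrid cells between them. The gene was detected in 44.2% (29.1 to 60.1) of WT luminal and 18.2% (8.19 to 32.7) of WT basal cells, and single WT luminal cells reached 5466 CPM around a median of 25 CPM. The scaffold NHERF1 (Slc9a3r1), which anchors carriers at the apical membrane, stood at 48.3 and 178 CPM in the basal and luminal gates of WT glands, and at 0.39, 173 and 146 CPM in the basal, hybrid and luminal gates of ablated glands. A single cell held 98.4% of its reads in WT basal cells, and without the cell with most reads in each group its luminal over basal log2 ratio was 3.96 in place of 1.69. NHERF2 (Slc9a3r2) followed with a smaller log2 ratio of 1.04, or 0.98 with median-of-ratios scaling.

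Of the 11 sugar and sodium-coupled carriers 5 were luminal and 1 was basal. Slc5a5, the sodium iodide symporter that brings iodide to milk, stood at 1.08 and 502 CPM in the basal and luminal gates of WT glands, and at 0.797, 13 and 123 CPM in the basal, hybrid and luminal gates of ablated glands. Slc5a5 reads were detected in 32.6% (19.1 to 48.5) of WT luminal cells and in 0 of 44 WT basal cells, where 3 cells give an upper limit of 6.82%. The cells were unlike each other: the median WT luminal cell stood at 6.32 CPM, the highest at 3766 CPM, and 1 cell held 40.5% of the reads. Slc2a4, the insulin-responsive glucose transporter GLUT4 best known from muscle and fat, went the other way, at 86.9 and 0.197 CPM in the basal and luminal gates of WT glands, and at 161, 50.7 and 1.83 CPM in the basal, hybrid and luminal gates of ablated glands. Slc2a4 reads were detected in 31% (20.5 to 43.1) of ablated basal cells, in 0 of 43 WT luminal cells, an upper limit of 6.98%, and in 1 of 76 ablated luminal cells. Of the other 6 adipocyte markers, Adipoq, Plin1, Cidec and Retn had 0 reads in all groups, Lep at most 0.065 CPM, and Pnpla2, a lipase, stood at 79.8 CPM in WT basal and 76.3 CPM in ablated basal cells and higher in the 3 other groups. The ubiquitous Slc2a1 (GLUT1) stood at 355, 459.6, 149, 311 and 319.7 CPM in the same group order and did not divide the WT lineages, with a log2 ratio of 0.36.

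Amino acid and peptide carriers went both ways, 7 of 25 luminal and 4 basal. On the basal side, the taurine transporter Slc6a6 stood at 556 and 53.3 CPM in the basal and luminal gates of WT glands, and at 437, 199 and 109.99 CPM in the basal, hybrid and luminal gates of ablated glands. Cells with Slc6a6 were 63.6% (47.8 to 77.6) of WT basal and 18.6% (8.39 to 33.4) of WT luminal cells. Slc43a3, placed with amino acid carriers by its family number although it carries purine nucleobases, stood at 199, 2.29, 239, 18.4 and 8.86 CPM in the same group order. Endothelial markers, of a cell type in which Slc43a3 is also known, summed to at most 12 CPM in any group. The creatine transporter Slc6a8 and the light chain Slc7a6, which pairs with Slc3a2, had log2 ratios of −2.63 and −1.64 towards basal cells. In the libraries of many cells the ratio of Slc6a8 was −0.15, with 1.06 and 0 CPM. On the luminal side, the glutamine importer Slc38a1 stood at 67.2 CPM in WT luminal and 0.217 CPM in WT basal cells, and the peptide importer Slc15a2 (PEPT2) at 18.9 and 0.0866 CPM. The remaining luminal genes were Slc1a1, Slc38a9, Slc38a10, Slc7a2 and Slc7a4.

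Of the 33 mitochondrial carriers 9 were luminal and 1 basal. Slc25a10, which exchanges dicarboxylates for phosphate, stood at 0.758 and 119.7 CPM in the basal and luminal gates of WT glands, and at 5.22, 110.2 and 105 CPM in the basal, hybrid and luminal gates of ablated glands. The libraries of many cells held 196 CPM in WT basal and 162 CPM in WT luminal cells, and the direction there was reversed, at −0.26. The carnitine carrier Slc25a20 and the glutathione importer Slc25a39 were also luminal, at 156 against 20.8 CPM and 395 against 152 CPM. The basal gene was Slc25a13, a carrier of aspartate and glutamate, with a log2 ratio of −2.67.

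Nucleoside, vitamin, metal and lipid carriers gave the other large luminal levels. Slc28a3, a concentrative nucleoside transporter, stood at 0.715 and 350.1 CPM in the basal and luminal gates of WT glands, and at 0.576, 182 and 64.4 CPM in the basal, hybrid and luminal gates of ablated glands. It was nearly absent from both basal groups and present in the 3 others. Slc44a4, which carries thiamine pyrophosphate, stood at 0.671, 290.01, 1.34, 35.7 and 77.7 CPM in the same group order, again low in both basal groups. The fatty acid transporter Slc27a1 stood at 208 CPM in WT luminal and 0.736 CPM in WT basal cells. Of 21 metal carriers 4 were luminal, a share near that of all genes, namely the zinc exporters or importers Slc30a4, Slc30a9 and Slc39a11 and the copper importer Slc31a1, and 0 were basal. For Slc31a1, 91.8% of the WT basal reads came from 1 cell, and the libraries of many cells went the other way, at 45.7 CPM in WT basal and 22.9 CPM in WT luminal cells. Of 11 vitamin and choline carriers Slc33a1 and Slc44a4 were luminal, of 8 nucleoside and nucleotide sugar carriers Slc28a3 and Slc35a4, and of 10 organic ion carriers Slc22a18 and Slc22a23. Slc35a4 was reversed in the libraries of many cells, at −4.38. None of the 3 monocarboxylate carriers passed, the lactate carrier Slc16a1 standing at 106 CPM in WT basal and 20.3 CPM in WT luminal cells, and 42.5% of the basal reads came from 1 cell.

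After ablation the lineages were again divided, and partly by other genes. Of the 148 genes 29 were higher in ablated luminal than in ablated basal cells, where 16.5% of all genes were, and 4 were lower, where 4.14% were. By fold alone 42 were higher and 20 lower, against 19.8% and 13.2% of all genes. The medians were 0.28 over the SLC genes and 0.16 over all genes. In both lineage comparisons, which share no cells, 20 genes were counted in the same direction and 0 in opposite directions. They were 45.5% of the 44 genes counted without ablation and 60.6% of the 33 counted after it. Over all genes the shares were 40.4% and 38.8%. The 16 luminal genes were Slc12a2, Slc15a2, Slc22a18, Slc22a23, Slc25a10, Slc25a20, Slc25a23, Slc25a35, Slc25a39, Slc31a1, Slc38a1, Slc39a11, Slc44a4, Slc5a5, Slc7a2 and Slc9a3r1. The 4 basal genes were Slc2a4, Slc43a3, Slc6a6 and Slc7a6. Slc25a39 left the list with TMM (trimmed-mean) or median-of-ratios scaling, where its ratio after ablation was 0.95 or 0.92 in place of 1.14. Across the 148 genes the ratios of both comparisons had a Pearson correlation of 0.57, against 0.50 over all genes, which describes genes that are not independent replicates.

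**Figure D1:**
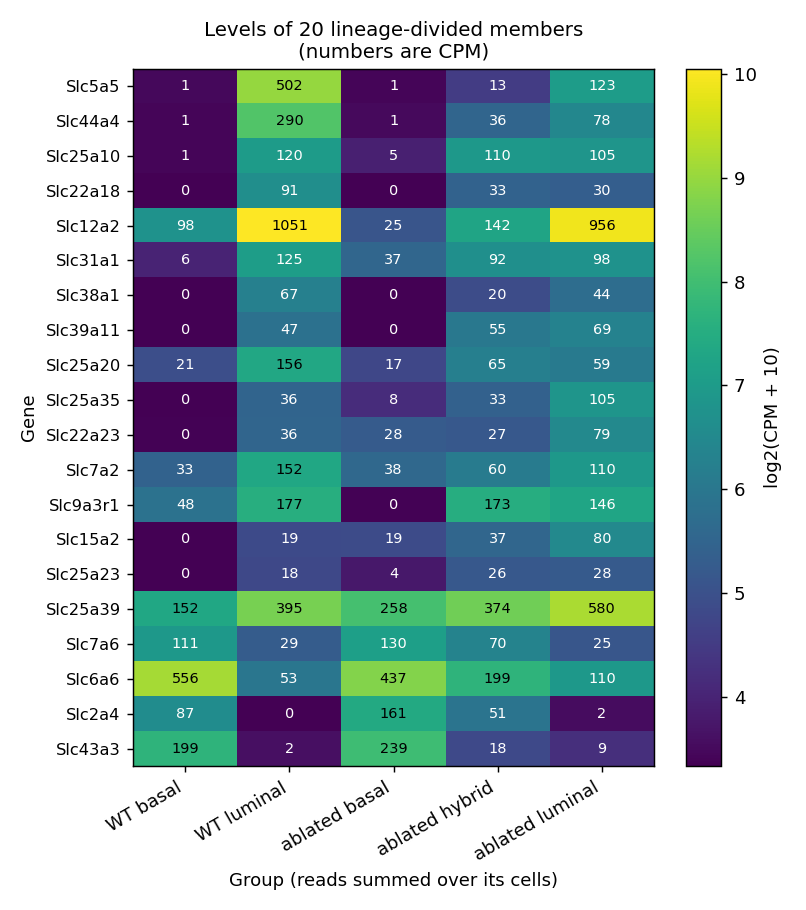
Levels of the 20 genes counted in both lineage comparisons (rows) in the 5 single-cell groups (columns), as log2 of CPM plus 10 in colour and as CPM in numbers, from the pooled reads of each group. In the upper 16 lines each luminal column is brighter than the basal column of the same glands, and in the 4 lowest, Slc7a6, Slc6a6, Slc2a4 and Slc43a3, it is darker.

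Luminal genes after ablation were led by Slc12a2 (log2 ratio 4.81), Slc9a3r1 (3.91), Slc5a5 (3.62), Slc39a11 (2.96) and Slc44a4 (2.95), and basal genes by Slc2a4 (−3.85), Slc43a3 (−3.72), Slc7a6 (−2.00) and Slc6a6 (−1.90). For Slc15a2, 87.9% of the ablated basal reads came from 1 cell. In the libraries of many cells 27 of the 33 (81.8%, against 81% of all genes counted) had the same direction. Slc5a5 did not: the ablated luminal library held 2.56 CPM and the ablated basal one 2.64 CPM, a log2 ratio of −0.01. Slc22a23 and the zinc transporter Slc39a13 were reversed there too, at −1.01 and −0.69.

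**Figure D2:**
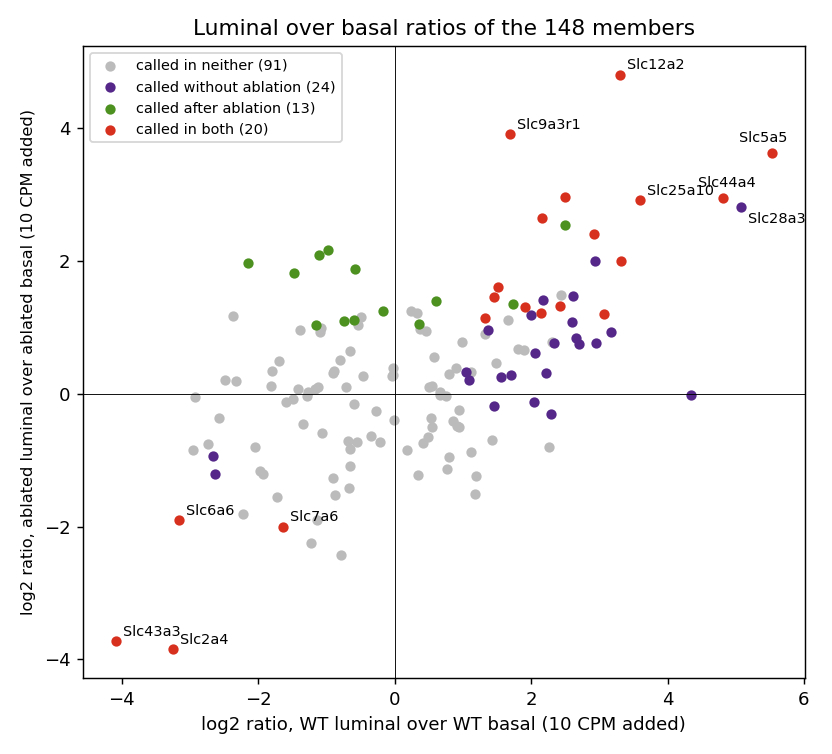
Log2 ratio of luminal over basal cells without ablation (horizontal axis) and after it (vertical axis) for the 148 genes, each point a gene, both after adding 10 CPM. The 20 genes counted in both comparisons lie in the upper right and lower left, 24 were counted only without ablation, 13 only after it and 91 in neither; whether the ratios differ was not tested.

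The comparison of ablated basal with WT basal cells addressed which basal carriers differ once luminal cells have been ablated. Few did by the full rule. Of the 148 genes 5 were higher, where 6.49% of all genes were, and 5 were lower, where 1.77% were. By fold alone 36 were higher and 29 lower, against 19.9% and 15.5% of all genes. Higher were Slc37a3, of the sugar phosphate antiporter family, the fatty acid transporter Slc27a1, the mitochondrial carrier Slc25a11, Slc35a4 and the choline transporter Slc44a1. Slc27a1 stood at 0.736 CPM in WT basal and 66 CPM in ablated basal cells and was detected in 11.3% (4.99 to 21) of the latter, and the libraries of many cells held 0.708 and 108 CPM. Slc25a11 stood at 25.3 and 184 CPM, and Slc37a3 at 0.368 and 89.4 CPM with 46% of the reads in 1 cell. Slc35a4 and Slc44a1 had the opposite direction in the libraries of many cells, at −1.99 and −1.44.

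Lower in ablated basal cells were Slc12a2, the glutamine transporter Slc1a5, the zinc transporters Slc39a13 and Slc39a14, and Slc7a6os. Slc1a5 stood at 186 CPM in WT basal and 49.7 CPM in ablated basal cells, a log2 ratio of −1.72, and −0.09 when read from the libraries of many cells, close to no difference. That of Slc12a2 was −1.64, carried by few cells: 18.2% (8.19 to 32.7) of WT basal and 5.63% (1.56 to 13.8) of ablated basal cells detected it. In the libraries of many cells Slc12a2 and Slc39a13 were reversed, at 2.41 and 1.83, and 6 of the 10 genes kept their direction. That was 60%, against 66.8% of all genes counted between the basal groups. With the top cell for each gene left out, 12 genes in place of 5 were higher, and with a minimum of 200000 reads per cell 8 were, so this count moves with single cells. Leaving out those cells also moved the median of all genes by 0.19 in this comparison. Fibroblast markers moved with the comparison, at a summed 972 CPM in WT basal and 2043 CPM in ablated basal cells, led by Dcn. Immune markers summed to 2.64 and 75.4 CPM, led in ablated cells by Cd74, and the basal markers Krt5, Myl9, Mylk and Cnn1 were counted higher. The part of these markers in the values was not tested. The genes on the basal side of the lineages were not counted in either direction. Slc6a6 stood at 556 and 437 CPM, Slc43a3 at 199 and 239 CPM, and Slc2a4 at 86.9 and 161 CPM.

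In ablated luminal cells 15 of 148 genes were higher than in WT luminal cells, where 11.3% of all genes were. Another 7 were lower, where 2.27% were. By fold alone 22 were higher and 15 lower, against 15.7% and 6.47% of all genes. That was fewer than the 36 and 29 between the basal groups, so which gate differed in more carriers depended on the rule. Lower were Slc5a5, Slc28a3, the sugar transporters Slc45a3 and Slc5a1, Slc27a1, Slc39a14 and the CMP-sialic acid transporter Slc35a1. Slc5a5 stood at 502 and 123 CPM, with detection in 32.6% (19.1 to 48.5) and 13.2% (6.49 to 22.9) of cells. Slc28a3 stood at 350.1 and 64.4 CPM, where 1 ablated luminal cell held 68.2% of the reads and the log2 ratio without the top cells was −3.28 in place of −2.28. Slc45a3 stood at 121 and 15.6 CPM. Slc35a1 had a ratio of −1.59 in single cells and 0.03 in the libraries of many cells. Alveolar markers, among them the caseins, summed to 24363 CPM in WT luminal and 1599 CPM in ablated luminal cells, and their part in these values was not tested. Within a gate, fewer cells of one kind and less transcript per cell cannot be told apart from group sums.

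Higher after ablation were carriers of several kinds. The zinc and manganese importer Slc39a8 had 0 reads in WT luminal cells and 34.5 CPM in ablated luminal cells. Cells with its reads made up 13.2% (6.49 to 22.9) of the latter, and 0 of 43 WT luminal cells gives an upper limit of 6.98%. Its log2 ratio was 2.15 in single cells and 1.23 in the libraries of many cells. The bicarbonate cotransporter Slc4a7 stood at 3.77 and 54.2 CPM, and Slc15a2 at 18.9 and 79.7 CPM. Slc6a8 and Slc25a13, basal without ablation, stood at 12.3 and 11.4 CPM in WT luminal and at 50.1 and 42.1 CPM in ablated luminal cells. Basal markers summed to 170 CPM in WT luminal and 6426 CPM in ablated luminal cells, and their part in these values was not tested. The zinc carriers Slc30a6 and Slc39a4 and the fatty acid carrier Slc27a3 had log2 ratios of 2.08, 1.91 and 2.29, but of −1.14, −0.38 and −0.26 in the libraries of many cells, where 14 of the 22 genes kept their direction. That was 63.6%, against 67.4% of all genes counted between the luminal groups. Slc29a1, at 1.01, was 0.73 with TMM scaling. The median log2 ratio over all genes in this comparison was 0.22, larger than that of the SLC genes at 0.14, and TMM scaling shifted it by −0.22. Slc12a2 stood at 1051 and 956 CPM, a log2 ratio of −0.14.

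Hybrid cells were compared with both neighbours of the same glands to place them between the lineages. Against ablated basal cells 22 of 148 genes were higher, where 13.1% of all genes were, and 2 were lower, Slc2a4 and Slc43a3, where 0.670% were. By fold alone 34 were higher and 17 lower, against 16.7% and 8.79% of all genes. Against ablated luminal cells 7 were higher, where 4.30% of all genes were, and 5 lower, where 2.18% were. By fold alone 10 were higher and 10 lower, against 6.12% and 3.97% of all genes. In the libraries of many cells 19 of the 24 and 10 of the 12 had the same direction. These were 79.2% and 83.3%, against 73.4% and 76.1% of all genes counted. With the top cell for each gene left out, 37 genes in place of 22 were higher than in ablated basal cells, and the median of all genes moved by 0.25. Of the 33 genes that divided ablated luminal from basal cells, the hybrid level lay between both in 26 (78.8%, against 82% of all genes so divided). It was above both for Slc22a18, Slc25a10, Slc25a20, Slc25a33 and Slc9a3r1, and below both for Slc22a23 and Slc39a8. The median position was 77.9% of the way from the basal to the luminal group on the log2 scale for the SLC genes counted, and 70.9% for all genes.

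Positions differed between genes. For Slc9a3r1 the hybrid level of 173 CPM was above the 146 CPM of luminal cells, and for Slc25a10 110.2 CPM stood beside 105 CPM. Slc12a2, at 142 CPM, stood between the 24.5 CPM of basal and the 956 CPM of luminal cells, and 50.6% (39.5 to 61.6) of hybrid cells detected it. Slc5a5 stood at 13 CPM against 123 CPM and Slc4a7 at 16.1 against 54.2 CPM. On the basal side, Slc43a3 was 18.4 CPM, near the luminal value of 8.86 CPM, and Slc2a4 50.7 CPM, between 161 and 1.83 CPM.  Higher in hybrid than in luminal cells were Slc2a4, Slc16a1, Slc28a3, Slc25a26, Slc17a5, the arginine transporter Slc7a1 and Slc7a6. Lower were Slc12a2, Slc25a35, Slc4a7, Slc22a23 and the iron transporter Slc11a2. The lysosomal sialic acid exporter Slc17a5 and Slc7a6 were reversed in the libraries of many cells, at −0.45 and −0.39, and Slc25a35 was close to no difference, at −0.04.

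Slc28a3 and Slc25a26, which imports S-adenosylmethionine into mitochondria, were higher in hybrid cells than in both neighbours. They were 2 of the 148 SLC genes, where 68 of the 9554 genes at 10 CPM or more were, and nothing particular to carriers was read from 2 genes. Slc28a3 stood at 182 CPM in hybrid, 64.4 in ablated luminal and 0.576 CPM in ablated basal cells, and was detected in 35.3% (25.2 to 46.4), 9.21% (3.78 to 18.1) and 0 of 71 cells, the last with an upper limit of 4.23%. The libraries of many cells had the same order, at 295, 84 and 3.08 CPM. Slc25a26 stood at 33.8 CPM in hybrid, 9.68 in ablated luminal and 1.48 CPM in ablated basal cells, while the libraries of many cells held 12.5, 0 and 94.1 CPM, highest in basal cells. No SLC gene was lower than in both neighbours, and the count over all genes was not taken. The lactate carrier Slc16a1 stood at 80.1 CPM in hybrid and 21.8 CPM in luminal cells, with detection in 29.4% (20 to 40.3) and 10.5% (4.66 to 19.7) of cells. Alveolar markers summed to 6768 CPM in hybrid and 1599 CPM in ablated luminal cells, and fibroblast markers to 615 and 130 CPM. Erythroid transcripts led by Hbb-bs summed to 795 CPM in hybrid and at most 11.4 CPM in the other groups, in few cells (at most 3.53% for any marker), and the part of these 3 marker sets in the values was not tested.

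**Figure D3:**
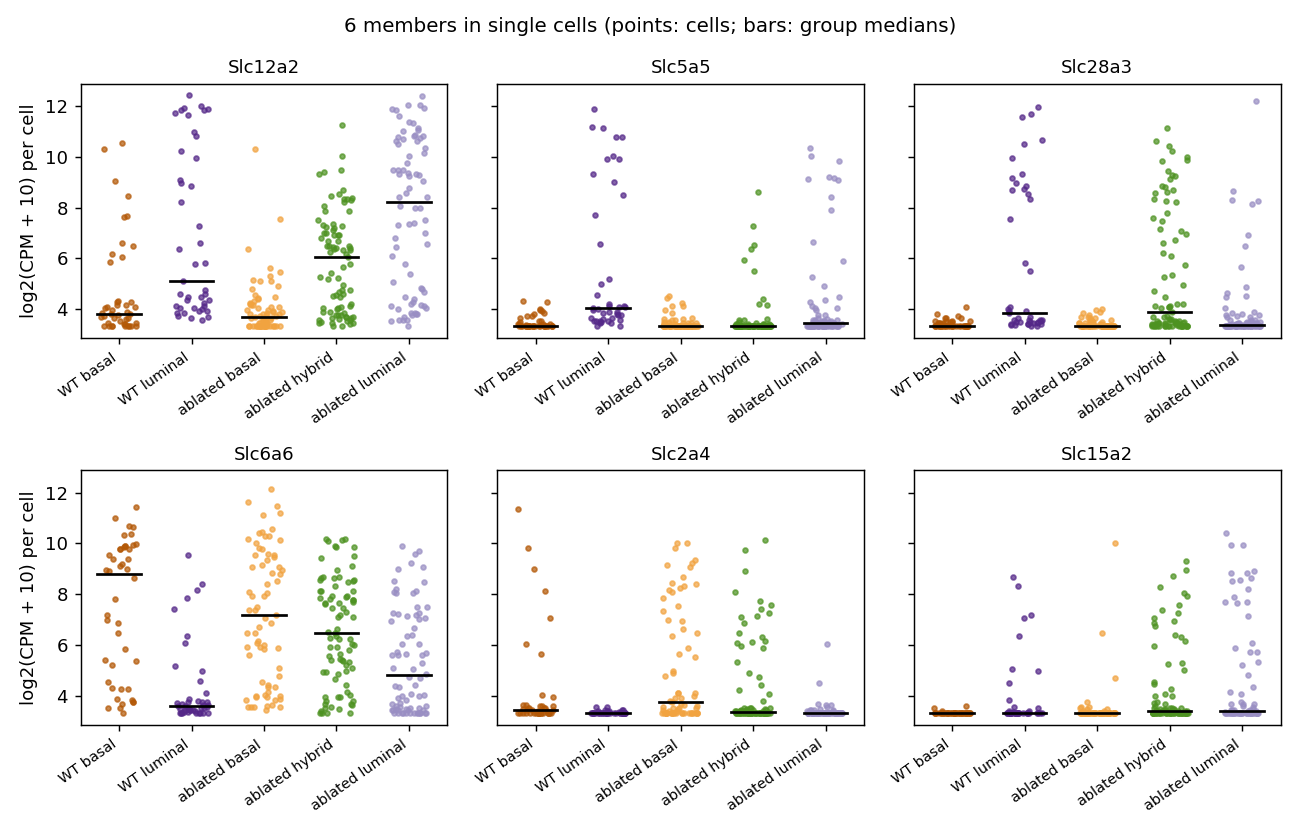
Levels of 6 genes in the single cells of each group, as log2 of CPM plus 10 on the vertical axis, with each point a cell and each bar a group median. Slc12a2 and Slc5a5 reach high values in some luminal cells while others lie at the floor, Slc28a3 does so in WT luminal and hybrid cells, and Slc6a6 is spread over all levels in basal and hybrid cells.

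Counting per cell showed whether genes of both lineages met in the same cells. The 38 luminal and 6 basal genes of the WT comparison were counted in every cell after thinning. WT values are fixed by the choice of these genes and are given for reference. The median number of luminal genes detected was 1 in basal and 8 in luminal cells of WT glands, and 3, 8 and 9.5 in basal, hybrid and luminal cells of ablated glands, and that of basal genes 2, 0, 2, 2 and 1 in the same order. Among the ablated groups, the median hybrid cell had 8 luminal genes, against 9.5 in luminal and 3 in basal cells. It had 2 basal genes, as the median ablated basal cell did, against 1 in ablated luminal cells. Hybrid cells also detected the most genes in all, as given above, and the part of that was not tested. Summed levels gave less of the luminal set, at 2783 CPM in hybrid, 4171.5 in ablated luminal and 1384 CPM in ablated basal cells, and for the basal set 465, 238 and 1185 CPM.

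**Figure D4:**
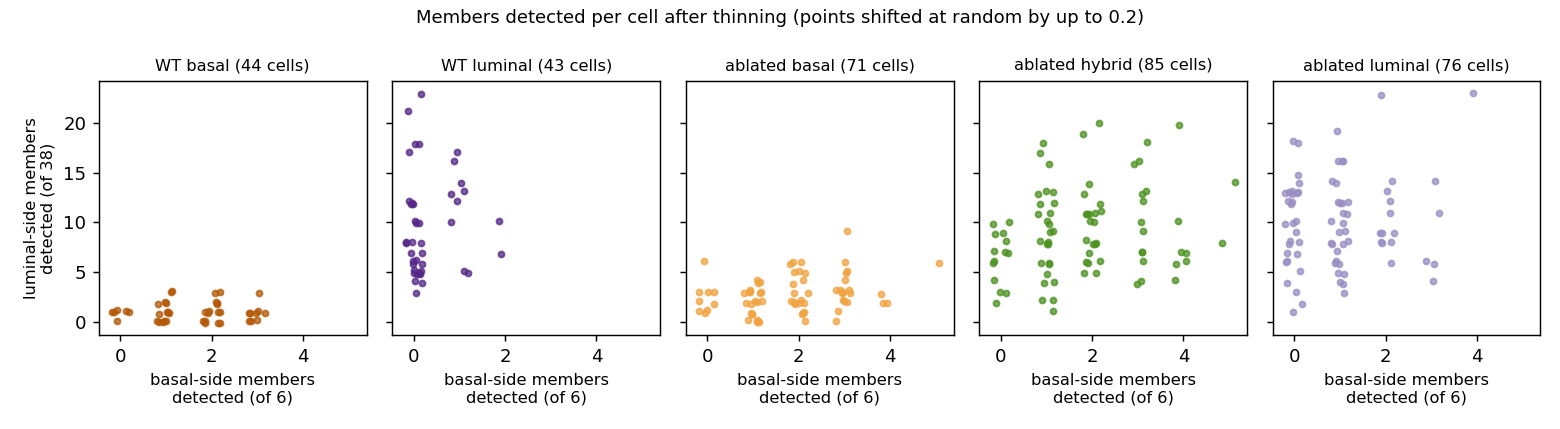
Number of basal genes (horizontal axis, of 6) and luminal genes (vertical axis, of 38) detected in each cell of the 5 groups, with points shifted at random for display. WT cells lie near the axes by the choice of genes. Hybrid cells spread over both, with up to 5 basal or 20 luminal genes in a cell. Ablated luminal cells reached 4 basal or 23 luminal genes in a cell, and ablated basal cells 5 or 9.

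Pairs of genes from opposite lineages were also counted in the same cell. Slc12a2 and Slc6a6 were both detected in 30 of 85 hybrid cells, 35.3% (25.2 to 46.4). They were both detected in 3 of 71 ablated basal cells, 4.23% (0.880 to 11.9), and in 17 of 76 ablated luminal cells, 22.4% (13.6 to 33.4). In WT cells the numbers were 4 of 44 basal and 5 of 43 luminal cells. Slc28a3 and Slc6a6 were both detected in 16 of 85 hybrid cells, 18.8% (11.2 to 28.8), in 3 of 76 ablated luminal cells and in 0 cells of the other groups. Slc12a2 and Slc2a4 were both detected in 7 of 85 hybrid, 1 of 71 ablated basal and 1 of 76 ablated luminal cells. In WT cells that pair was found in 2 of 44 basal and 0 of 43 luminal cells. Such counts depend on how many cells detect each gene. Of the hybrid cells, 13 detected Slc12a2 without Slc6a6 and 20 the reverse, and 14 detected Slc28a3 without Slc6a6 and 34 the reverse. The part of this in the pairs was not tested. Wells that may hold more than 1 cell were not looked for, and whether such wells add to these pairs was not tested.

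Partners, pumps and channels lie mostly outside the 148 genes, and their counts stand beside the shares of all genes. Of the transporter partners, 17 of 20 listed genes were measured, 6 were luminal and 2 basal in WT cells, against 14.9% and 4.89% of all genes, and the median log2 ratio was 0.50, against 0.00. Embigin (Emb), which chaperones lactate carriers, stood at 677 and 2.84 CPM in basal and luminal cells of WT glands, and at 679.7, 244 and 362 CPM in basal, hybrid and luminal cells of ablated glands, while its relative basigin (Bsg) stood at 356, 938, 556, 864 and 851 CPM. Fxyd2, a regulator of the sodium pump, stood at 368 CPM in WT luminal, 76.7 in ablated luminal and 3.64 CPM in hybrid cells. Of 32 pumps, channels and ABC transporters 21 were measured and 8 were luminal and 3 basal in WT cells, against the same 14.9% and 4.89%, led by the water channel Aqp5 at 368 against 1.15 CPM. After ablation 8 were higher and 1 lower in luminal than in basal cells, against 16.5% and 4.14% of all genes, among them the water channel Aqp3 at 174 against 1.05 CPM. In hybrid against luminal cells 0 were higher and 4 lower (Aqp3, Aqp5, Kcnn4 and Slco2a1), against 4.30% and 2.18%.

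Of 21 transporters known from milk secretion 17 were measured, and 7 were luminal and 0 basal without ablation (14.9% and 4.89% of all genes), and 6 and 0 after it (16.5% and 4.14%), which repeats genes described above. Of 11 transporters known as targets of the amino acid stress factor ATF4, 7 were measured. In WT cells Slc38a1 was luminal and 0 were basal (14.9% and 4.89% of all genes), although the median log2 ratio was −1.22. Slc1a5 alone was lower in ablated basal than in WT basal cells, against 1.77% of all genes. Between the luminal groups 0 were counted, against 11.3% higher and 2.27% lower. Slc38a1 alone was higher in ablated luminal and in hybrid than in ablated basal cells, against 16.5% and 13.1%. Slc7a1 alone was higher in hybrid than in luminal cells, against 4.30%. With 7 genes, nothing was read from these counts. Slc7a5, the large neutral amino acid light chain, stood at 46.1, 9.86, 26.2, 55.7 and 24.2 CPM in the same group order, and Slc1a4 at 26.4, 51.5, 36.3, 8.2 and 35.1 CPM. Of 15 regulators of transporter genes 14 were measured. Txnip, which restrains glucose uptake, stood at 1957 CPM in WT luminal and 248 CPM in ablated luminal cells, and the alveolar factor Elf5 at 111 and 22.9 CPM. Across single cells, 6 pairs of carriers and partners such as Slc7a5 with Slc3a2 had Pearson correlations from −0.24 to 0.27 within groups, over 43 to 85 cells that share depth and plate, and no pattern was read from them.

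Precision differed between genes. Exact Poisson 95% intervals of levels at 50 CPM or more were at most 4.11% wide on either side. They cover counting error only, and without molecular identifiers reads do not stand for separate molecules. The spread between cells is far larger: in the group with its highest level, the median SLC gene had 30.2% of its reads in 1 cell, and 30 of the 148 had over 50% in 1 cell. Slc15a2 and Slc25a20 were chosen for mention after their values were seen. Reads of 4 SLC genes, among them Slc1a1, Slc25a35 and Slc33a1, can belong in part to a neighbour. Over 20% of their exon length is shared with another gene, and 48 of the 148 genes have some such overlap.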

How the data were processed

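A plate of 384 wells held single cells of 5 groups, 1 library of many cells for each group (5 in all) and 5 wells with no cell as negative controls. The deposited table holds raw counts of reads per gene (49585 genes and 92 spike-ins with 11 reads in all). HTSeq 0.6.0, Seurat, STAR 2.5.2b, cutadapt 1.13 and the GRCm38 build are listed, without roles, per the submitters' processing notes. The annotation release was not given in the sources used here. Gene identifiers were matched to GENCODE M21 for lengths and overlaps (49326 of 49585). RefSeq windows were found for 111 of 148 genes.

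Cells were kept at 100000 reads in genes, 1000 genes and at most 20% mitochondrial reads. Of 374 wells 319 were kept, 47 were left out for reads and 8 for mitochondrial share. For levels, the deposited counts of the kept cells were pooled by group and scaled to CPM. Detection was read after thinning each cell to 100000 reads. Exact intervals are at 95%. Each group is 1 sample with no animal named, so no test was made, and negative control wells entered no comparison. Group and well position go together, and no doublet caller was run. The genes described and all lists were chosen with earlier results of these data known.

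The genes named are the 10 highest per kilobase, up to 5 counted genes at each end of every comparison, up to 2 per substrate class (classes by family number), the ATF4 list, fixed pairs, up to 3 genes of each other list per comparison, and every gene in a count of 5 or fewer. The 15 alternatives covered the added value, scaling by edgeR 4.0.16 (TMM) and DESeq2 1.42.0 (median of ratios), cell filters, detection minimum, thinning, equal weight per cell, negative control reads, the cell with most reads of a gene and the libraries of many cells. The rule was tested on simulated data. Python 3.11.15, numpy 2.4.6, pandas 2.3.3, scipy 1.17.1, matplotlib 3.10.9 and R 4.3.3 were used.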

Additional observations from a re-analysis of the deposited data

Results flagged for a closer look

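Slc27a1, which brings long-chain fatty acids into cells, went in opposite directions in the lineages after ablation, with a log2 ratio of 2.82 in ablated basal over WT basal cells and of −1.54 in ablated luminal over WT luminal cells. It stood at 0.736 and 208 CPM in the basal and luminal gates of WT glands, and at 66, 65.8 and 65 CPM in the basal, hybrid and luminal gates of ablated glands. In these single-cell levels the 3 ablated groups stood close together, and the WT groups far apart. The libraries of many cells gave ratios of 3.46 and −3.68, and of 4.45 for WT luminal over WT basal cells. By these ratios the ablated luminal library lay well below the ablated basal one, so the ablated lineages were not close there. The difference was not tested, since each group is 1 sample.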

How the results depend on the processing

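The counts above kept within 1.5 times their value with 1 CPM added in place of 10, with TMM or median-of-ratios scaling, equal weight per cell, a minimum of 2000 genes, a mitochondrial limit of 10%, negative control reads subtracted and no minimum level. Median-of-ratios scaling moved the median of all genes by up to −0.25, between the luminal groups. With both scalings Slc2a1, Slc39a8 and Slc7a6os fell under 2-fold between ablated lineages, as did Slc2a1 in hybrid over basal cells, and Slc11a2 with TMM in hybrid over luminal cells. A minimum of 200000 reads gave 8, no thinning 3, and leaving out the cell with most reads 12 genes higher in ablated than in WT basal cells (5 as reported); the last gave 37 (22) higher in hybrid than in ablated basal cells. With detection at 1 read, 15 genes were lower in WT luminal than in WT basal, 12 higher and 9 lower in ablated basal than in WT basal, and 7 lower in ablated luminal than in ablated basal cells. At 20 reads, 20 were higher in WT luminal than in WT basal, 1 higher and 1 lower in ablated basal, 3 higher in ablated than in WT luminal, 14 higher in ablated luminal than basal, 9 higher in hybrid than basal, and 2 higher and 2 lower in hybrid than luminal cells, with 16 between and 9 in both lineage comparisons. Without a detection rule, 39 were lower in WT luminal than in WT basal, 36 higher and 29 lower in ablated basal, 15 lower in ablated than in WT luminal, 20 lower in ablated luminal than basal, 34 higher and 17 lower in hybrid than basal, and 10 lower in hybrid than luminal cells, with 49 between and 37 in both. The libraries of many cells, read by fold alone, moved 13 of the 14 counts and gave 39 lower in WT luminal than in WT basal, 48 higher and 34 lower in ablated basal, 49 and 35 in ablated luminal over WT luminal, 58 and 38 in ablated luminal over basal, 54 and 32 in hybrid over basal, and 40 and 32 in hybrid over luminal, with 62 between and 38 in both. There the log2 ratio was reversed for Slc12a2 (2.41), Slc35a4 (−1.99), Slc39a13 (1.83) and Slc44a1 (−1.44) in ablated over WT basal cells. It was reversed for Slc25a10 (−0.26) and Slc35a4 (−4.38) between WT lineages, and for Slc27a3 (−0.26), Slc30a6 (−1.14), Slc35a1 (0.026) and Slc39a4 (−0.38) between luminal groups. It was also reversed for Slc22a23 (−1.01), Slc39a13 (−0.69) and Slc5a5 (−0.0087) between ablated lineages, Slc39a13 (−0.53) in hybrid over basal, and Slc17a5 (−0.45) and Slc7a6 (−0.39) in hybrid over luminal cells. The causes were not tested. No paired analysis was possible because no test was made and the labels name no animals.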

Other observations

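The carriers of aspartate and glutamate across the inner mitochondrial membrane, Slc25a12 and Slc25a13, lay on opposite sides of the WT gland. Slc25a12, singled out after its values were seen, stood at 8.64 and 134 CPM in the basal and luminal gates of WT glands, and at 52.2, 50.4 and 96 CPM in the basal, hybrid and luminal gates of ablated glands. Slc25a13 stood at 126, 11.4, 90.1, 41.8 and 42.1 CPM in the same group order. The WT libraries of many cells held 2.12 CPM (basal) and 161 CPM (luminal) of Slc25a12, and 81.4 and 0.995 CPM of Slc25a13, the same order in both. After ablation both genes were found in all 3 groups, with no group below 41.8 CPM. In WT basal cells 70.4% of the Slc25a12 reads, and in WT luminal cells 71.9% of the Slc25a13 reads, came from 1 cell.

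The phosphate importers were measured in every group. Slc20a1 stood at 243 and 90.2 CPM in the basal and luminal gates of WT glands, and at 160.4, 183 and 114 CPM in the basal, hybrid and luminal gates of ablated glands, and the libraries of many cells gave it 798 CPM in WT basal and 46.7 CPM in WT luminal cells. It was not counted between these, since it was detected in 18.2% (8.19 to 32.7) of WT basal and 25.6% (13.5 to 41.2) of WT luminal cells. Slc20a2 stood at 29.1, 46.8, 59.1, 41.7 and 43.8 CPM in the same group order. The urea transporter Slc14a1 stood at 87.7, 17.9, 17.1, 11.5 and 19.4 CPM in that order, with 69.1% of the WT basal reads in 1 cell.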
